A study of Mus musculus with 6 samples.

Results

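The FoxO factors and fasting response genes described here are Foxo1, Foxo3, Foxo4, Irs2, Bcl6, Fbxo32, Pdk4, Cpt1a and Angptl4. They are 9 of the 55335 genes in a table of RNA levels in mouse sciatic nerve, each matched by its symbol to 1 Ensembl gene ID. Polyadenylated RNA was sequenced from lysates of nerves collected at postnatal day 14, when Schwann cells, the glia of peripheral nerve, are wrapping axons in myelin. The 3 icKO libraries came from mice with both Rhoa alleles floxed and with ChATCreERT2, an inducible Cre recombinase under control of the choline acetyltransferase gene, which marks cholinergic neurons, spinal motoneurons among them. The 3 control libraries came from mice with the same floxed alleles (RhoAfl/fl) and no Cre. The cell bodies of motoneurons lie in the spinal cord, so the lysate holds mainly RNA of the other cells of the nerve, and the labels give neither the induction schedule nor any drug given to the control mice. The 9 genes were chosen by their FPKM in the icKO and control libraries, which were known when the list was made. Their differences are therefore given as a description, without p-values, and where they are counted as called the count describes the choice and tests nothing.

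FoxO proteins are forkhead transcription factors that insulin and growth factor signals switch off. When the kinases Akt and Sgk phosphorylate them, they leave the nucleus bound to 14-3-3 proteins. When these signals are weak, as in fasting, FoxO proteins stay in the nucleus and raise genes of protein breakdown, of autophagy and of fuel use, among them Fbxo32, Pdk4 and Irs2. Fasting genes such as Pdk4, Cpt1a and Angptl4 move cells from glucose to fatty acids, and are also known targets of PPAR nuclear receptors, and several of them of glucocorticoids.

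Values are FPKM, fragments per kilobase of transcript scaled to the depth of the library, which allows levels of different genes to be compared. The depth, estimated from the smallest steps of the values, was 17800000 to 19500000 fragments in the icKO libraries and 17200000 to 20600000 in the control libraries. Rhoa itself was at 36.4, 33.6 and 33.2 FPKM in icKO nerves, against 36.5, 39.0 and 38.0 FPKM in control nerves, a difference that missed the threshold (Benjamini-Hochberg adjusted p from limma = 0.195). Xist reached 46.1 FPKM in control replicate 2, and no other library exceeded 0.0282 FPKM, so that only the control group holds both sexes. Summed markers of Schwann, perineurial and macrophage cells overlapped between the groups. Those of fat, fibroblast, mural and endothelial cells were lower in every icKO library than in every control library, the endothelial sums by a narrow margin (at most 64.8 FPKM in icKO and at least 65.2 FPKM in control nerves). Single markers went the other way, since Pdgfra of fibroblasts and Pecam1 of endothelial cells were called higher. In a bulk lysate, fewer cells of a type and less RNA per cell cannot be told apart.

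Of the 9 genes, 6 have a promoter in the RefSeq table of build GRCm38.p6, which gives 250 bases before and 50 after an annotated start. Angptl4, Foxo4 and Fbxo32 have none there. The windows were searched on both strands for the FoxO core GTAAACA, the insulin response letters CAAAACA, the glucocorticoid receptor hexamer AGAACA, the BCL6 and STAT motif TTCNNNGAA and the PPAR direct repeat, which is the hexamer AGGTCA given a second time after 1 free base. Shown are the windows of Irs2 (chr8:11008880-11009179, minus strand) and Cpt1a (chr19:3323051-3323350, plus strand), which both hold CAAAACA although Irs2 was higher in icKO nerves and Cpt1a overlapped between the groups, of Bcl6 at the more downstream of its 2 starts (chr16:23981234-23981533, minus strand) and of Pdk4, the gene with the largest difference (chr6:5496229-5496528, minus strand). Each reads 5′ to 3′ on the strand of the gene, with motif matches in capitals.
Irs2: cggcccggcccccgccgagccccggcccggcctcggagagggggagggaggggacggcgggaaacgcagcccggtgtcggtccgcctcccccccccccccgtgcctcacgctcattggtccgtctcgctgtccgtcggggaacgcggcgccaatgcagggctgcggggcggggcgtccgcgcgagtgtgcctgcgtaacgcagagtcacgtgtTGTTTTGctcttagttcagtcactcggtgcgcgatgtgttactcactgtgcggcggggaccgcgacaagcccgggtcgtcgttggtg
Cpt1a: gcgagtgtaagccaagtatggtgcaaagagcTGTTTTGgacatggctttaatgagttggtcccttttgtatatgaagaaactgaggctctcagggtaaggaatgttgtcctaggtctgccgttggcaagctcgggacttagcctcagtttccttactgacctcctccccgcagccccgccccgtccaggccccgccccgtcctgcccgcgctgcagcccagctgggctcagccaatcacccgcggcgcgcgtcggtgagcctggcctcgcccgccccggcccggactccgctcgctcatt
Bcl6: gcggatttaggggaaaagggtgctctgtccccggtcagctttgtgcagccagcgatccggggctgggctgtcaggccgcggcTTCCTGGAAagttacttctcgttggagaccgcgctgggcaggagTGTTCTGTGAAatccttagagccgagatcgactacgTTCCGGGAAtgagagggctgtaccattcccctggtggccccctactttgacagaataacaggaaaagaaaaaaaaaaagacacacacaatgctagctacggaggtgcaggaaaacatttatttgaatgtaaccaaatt
Pdk4: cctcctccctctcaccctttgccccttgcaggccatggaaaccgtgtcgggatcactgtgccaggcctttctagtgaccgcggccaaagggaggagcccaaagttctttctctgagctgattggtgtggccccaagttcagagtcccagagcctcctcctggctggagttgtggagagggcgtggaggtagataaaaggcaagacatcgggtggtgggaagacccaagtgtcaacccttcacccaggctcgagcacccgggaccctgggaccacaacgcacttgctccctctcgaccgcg
In Irs2 the letters CAAAACA, read on the opposite strand, lie 37 to 31 bases before the start, and in Cpt1a 219 to 213 bases before it. CAAAACA is found in 6.28% of all 32851 promoters in the table. The Bcl6 window holds TTCNNNGAA at 3 places, in a gene whose protein is known to repress its own transcription, and the middle one overlaps a match to AGAACA on the opposite strand. The window at the other Bcl6 start holds TTCNNNGAA at 1 place. TTCNNNGAA is found in 8.3% of the promoters and AGAACA in 19.0%. None of the 7 windows of the 6 genes holds GTAAACA or the PPAR direct repeat, which are found in 3.65% and 0.0396% of promoters. Neither Pdk4 nor the windows of Foxo1 and Foxo3 held any of the 5 motifs. A match to letters is not evidence of binding, and longer distances were not searched.

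Among the FoxO factors, the levels of Foxo3 and Foxo1 were higher in icKO nerves, while those of Foxo4 overlapped between the groups. Foxo3 (ENSMUSG00000048756) was at 20.0, 23.6 and 19.1 FPKM in icKO nerves, against 12.4, 12.2 and 9.93 FPKM in control nerves. Every icKO library lay above every control library, with a ratio of means of 1.81 and, in mean log2(FPKM + 1), a difference of 0.81 (SE 0.12). Foxo1 (ENSMUSG00000044167) was at 13.8, 14.0 and 12.3 FPKM in icKO nerves, against 10.0, 9.61 and 9.46 FPKM in control nerves, a ratio of means of 1.38. Its groups did not overlap either, and the log2 difference was 0.42 (SE 0.08). Foxo4 (ENSMUSG00000042903), a family member encoded on the X chromosome, was at 30.8, 35.8 and 22.1 FPKM in icKO nerves, against 30.1, 28.1 and 27.5 FPKM in control nerves. The icKO libraries surrounded the control libraries, with a log2 difference of 0.02 (SE 0.17).

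Foxo4 was thus the most abundant FoxO transcript of the nerve per length. The order in icKO nerves was Foxo4, Foxo3 and Foxo1, with the lowest Foxo4 library (22.1 FPKM) below the highest Foxo3 library (23.6 FPKM). The order was the same in control nerves, where Foxo3 and Foxo1 overlapped in range and Foxo4 stood apart from both. Foxo6, the least abundant factor and no member of the list, was at 1.77, 1.83 and 1.80 FPKM in icKO nerves, against 0.561, 0.851 and 0.868 FPKM in control nerves, a rise of 0.67 in log2 units (SE 0.11, limma, Benjamini-Hochberg adjusted p = 0.00381). The summed FPKM of the 4 factors was 65.6 ± 10.0 in icKO and 50.5 ± 2.67 in control nerves (SD, n = 3 each). Foxo3 made up 32.0 ± 2.26% of this sum in icKO nerves and 22.7 ± 1.72% in control nerves, and Foxo4 made up 44.7 ± 4.13% in icKO and 56.6 ± 1.12% in control nerves.

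**Figure D1:**
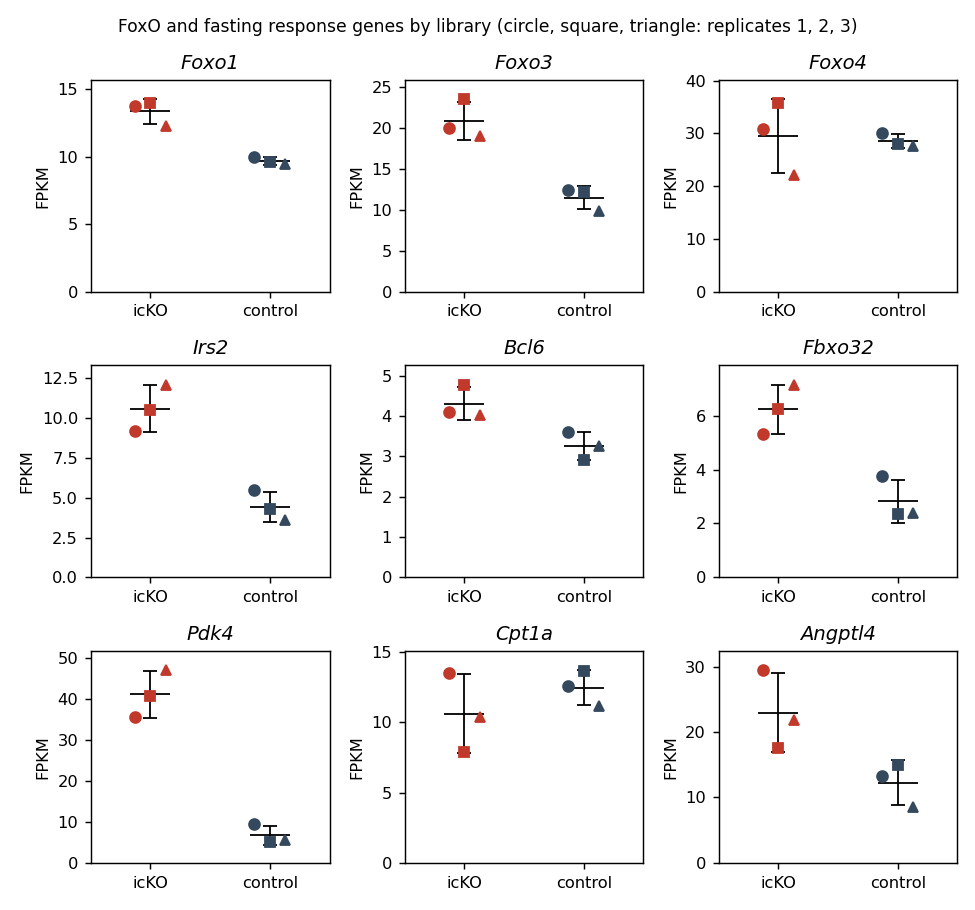
FPKM (linear axes from 0) of the 9 genes in the 3 icKO libraries (red, left) and the 3 control libraries (dark, right); circle, square and triangle are replicates 1, 2 and 3, and bars are mean ± SD. In 7 genes all icKO libraries lie above all control libraries, while Foxo4 and Cpt1a overlap.

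Irs2, an adaptor that couples the insulin and IGF receptors to PI3 kinase and whose gene FoxO proteins are known to raise, was higher in icKO nerves. Irs2 (ENSMUSG00000038894) was at 9.17, 10.5 and 12.1 FPKM in icKO nerves, against 5.47, 4.26 and 3.58 FPKM in control nerves. The lowest icKO library was 1.68 times the highest control library, and the log2 difference was 1.1 (SE 0.15). The related adaptor Irs1 was at 8.18, 9.72 and 9.14 FPKM in icKO nerves and 9.43, 9.72 and 10.04 FPKM in control nerves, and did not pass (limma, Benjamini-Hochberg adjusted p = 0.366). Irs2 was 53.9 ± 2.70% of the summed FPKM of both adaptors in icKO nerves and 31.2 ± 5.24% in control nerves (SD, n = 3 each). In icKO nerves Irs2 exceeded Irs1 in every library, and in control nerves Irs1 exceeded Irs2 in every library.

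Bcl6, a zinc finger repressor known in lymphocytes and in the fasting liver, showed the smallest of the 7 non-overlapping differences. Bcl6 (ENSMUSG00000022508) was at 4.12, 4.78 and 4.03 FPKM in icKO nerves, against 3.61, 2.92 and 3.26 FPKM in control nerves, a log2 difference of 0.32 (SE 0.10). The lowest icKO library exceeded the highest control library by a factor of 1.12. Bcl6 was no longer called in 8 of 14 alternative settings, among them the fits without icKO replicate 1 or 2, without control replicate 2 or 3 and with median-of-ratios or quantile scaling, where its log2 difference kept its sign.

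Fbxo32, which encodes atrogin-1, a ubiquitin ligase subunit that FoxO proteins raise in wasting muscle, was higher in icKO nerves. Fbxo32 (ENSMUSG00000022358) was at 5.30, 6.27 and 7.14 FPKM in icKO nerves, against 3.75, 2.35 and 2.37 FPKM in control nerves, a log2 difference of 0.93 (SE 0.17). The groups did not overlap, and the highest library of each group was the one with the most muscle RNA. The other muscle ligase of this kind, Trim63 (MuRF1), was at 0.159, 0.400 and 6.0 FPKM in icKO nerves, against 0.853, 0.261 and 0.229 FPKM in control nerves (limma, Benjamini-Hochberg adjusted p = 0.448), so that it was high in icKO replicate 3 alone. The summed FPKM of 11 skeletal muscle markers was 9.70, 22.8 and 1383 in icKO nerves, against 1229, 237 and 325 in control nerves, with none of the 11 at 0 in any library and 1 called (Pvalb, lower). In icKO replicates 1 and 2 the muscle sum was below that of every control library, and Fbxo32 was above its level in every control library. Without control replicate 1 and icKO replicate 3, the muscle-rich libraries, the log2 difference of Fbxo32 was 1.01.

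Pdk4 showed the largest difference of the 9 genes. It encodes a kinase of mitochondria that switches off pyruvate dehydrogenase and so spares glucose. Pdk4 (ENSMUSG00000019577) was at 35.6, 40.7 and 47.0 FPKM in icKO nerves, against 9.42, 5.08 and 5.64 FPKM in control nerves. The lowest icKO library was 3.78 times the highest control library, and the ratio of means was 6.12. Its log2 difference of 2.48 (SE 0.22) was the 21st largest rise among the 12860 tested genes. The kinases Pdk1 and Pdk2 rose by less. Pdk2 was at 26.0, 30.5 and 24.0 FPKM in icKO nerves, against 22.2, 16.8 and 16.2 FPKM in control nerves (log2 difference 0.53, SE 0.15; limma, Benjamini-Hochberg adjusted p = 0.0270). Pdk1 was at 4.56, 5.32 and 3.78 FPKM in icKO nerves, against 2.96, 3.11 and 2.94 FPKM in control nerves (adjusted p = 0.0180). Neither passed in every fit: Pdk1 was lost without control replicate 3, and Pdk2 without icKO replicate 1 or 2, without control replicate 2 or 3 and without a filter (limma adjusted p up to 0.0905 over all alternatives). Pdk3 was at 4.34, 4.45 and 5.56 FPKM in icKO nerves, against 5.26, 6.71 and 6.77 FPKM in control nerves, and did not pass (adjusted p = 0.0786), but passed as a fall without icKO replicate 3, without control replicate 1, without both muscle-rich libraries and with quantile scaling. Pdk4 was 53.1 ± 4.69% of the summed FPKM of the 4 kinases in icKO nerves and 19.2 ± 3.95% in control nerves (SD, n = 3 each). It was the most abundant of the 4 in every icKO library, and Pdk2 was in every control library.

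**Figure D2:**
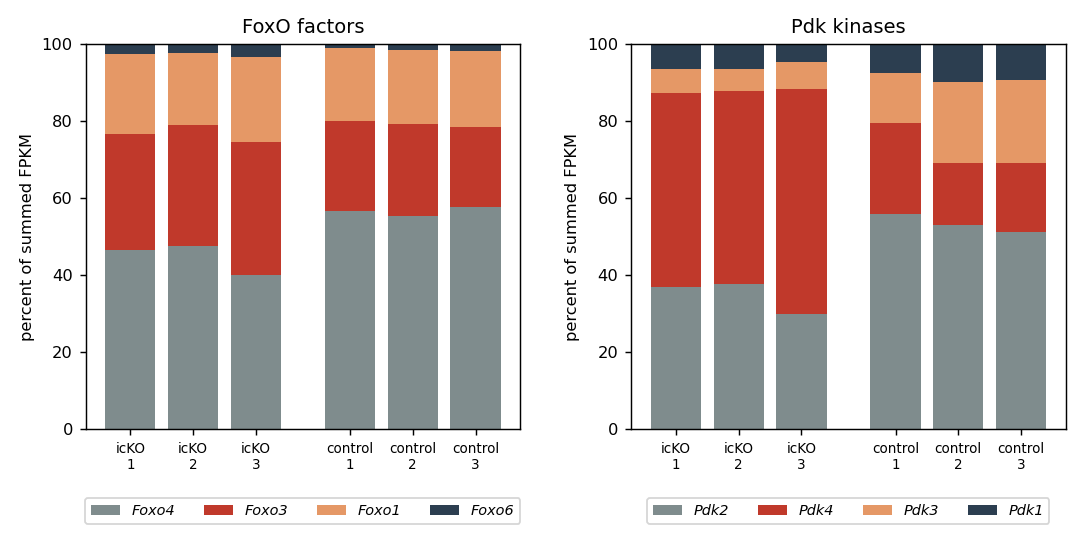
Share of each gene in the summed FPKM of the 4 FoxO factors (left) and of the 4 Pdk kinases (right), in percent, for each icKO library and each control library. Foxo3 takes 30.1 to 34.5% in icKO and 20.8 to 24.0% in control libraries, and Pdk4 takes 50.2 to 58.5% in icKO and 16 to 23.6% in control libraries.

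Cpt1a, the enzyme that admits long-chain fatty acids to mitochondria, overlapped between the groups. Cpt1a (ENSMUSG00000024900) was at 13.5, 7.89 and 10.4 FPKM in icKO nerves, against 12.6, 13.6 and 11.1 FPKM in control nerves, a log2 difference of -0.24 (SE 0.18). The groups overlapped, since icKO replicate 1 was close to the highest control library and the other icKO libraries lay below the control libraries. Of its relatives, the muscle form Cpt1b was at 2.34, 2.57 and 2.71 FPKM in icKO nerves and 2.91, 1.303 and 0.423 FPKM in control nerves (limma, Benjamini-Hochberg adjusted p = 0.190), passing as a rise without control replicate 1 or without both muscle-rich libraries. Cpt1b shares exons with an annotated gene on the same strand, Gm44502, so its level is uncertain. The neuronal form Cpt1c fell, at 2.37, 1.80 and 1.62 FPKM in icKO nerves, against 4.32, 4.30 and 3.71 FPKM in control nerves (log2 difference -0.81, SE 0.12; limma, Benjamini-Hochberg adjusted p = 0.00291). Cpt1a made up 69.7 ± 4.93% of the summed FPKM of the 3 enzymes in icKO nerves and 69.1 ± 4.93% in control nerves (SD, n = 3 each).

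Angptl4, a secreted inhibitor of lipoprotein lipase that rises in fasting, was higher in icKO nerves. Angptl4 (ENSMUSG00000002289) was at 29.5, 17.6 and 21.9 FPKM in icKO nerves, against 13.4, 15.0 and 8.49 FPKM in control nerves, a log2 difference of 0.86 (SE 0.25). The groups did not overlap, with icKO replicate 2 lying 1.17 times above control replicate 2. It was no longer called in 6 of 15 alternative settings, those without icKO replicate 1 or 3, without control replicate 1 or 3, without both muscle-rich libraries and without a filter, and its log2 difference was 0.63 to 1.03 over all of them. Its enzyme target Lpl was at 6.40, 5.79 and 10.8 FPKM in icKO nerves, against 12.4, 21.4 and 21.7 FPKM in control nerves, a fall (log2 difference -1.18, SE 0.28; limma, Benjamini-Hochberg adjusted p = 0.0153). Lpl did not pass without icKO replicate 1 or 2 or control replicate 2 or 3 (limma adjusted p up to 0.0541 over all alternatives). Gpihbp1, which holds the lipase on capillaries, rose to 6.36, 8.72 and 7.002 FPKM in icKO nerves, against 2.04, 1.60 and 2.04 FPKM in control nerves (log2 difference 1.53, SE 0.13; limma, Benjamini-Hochberg adjusted p = 0.000652). Fat cells are a known source of Angptl4, Pdk4 and Lpl. All 7 adipocyte markers fell, none was at 0 in any library, and their summed FPKM was 95.2, 78.1 and 136 in icKO nerves, against 512, 528 and 425 in control nerves. The part of these cells in the levels of Angptl4, Pdk4 and Lpl was not tested.

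**Figure D3:**
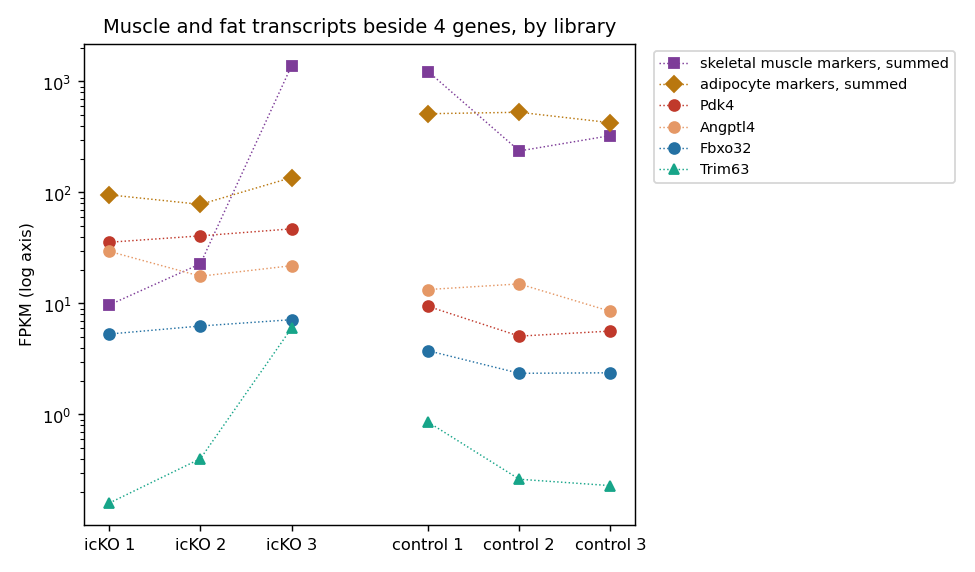
FPKM on a log axis of 11 skeletal muscle markers (summed), 7 adipocyte markers (summed), Pdk4, Angptl4, Fbxo32 and Trim63 in each icKO library (left) and each control library (right). The muscle sum spans 9.70 to 1383 among icKO and 237 to 1229 among control libraries and the fat sum is lower in every icKO library.

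All 9 genes were at 1 FPKM or more in every library, so none passed the filter through 1 group alone. Across all tested genes, 42.9% were called by limma at a Benjamini-Hochberg adjusted p under 0.05, and 20.8% were called higher in icKO nerves. By the same rule 7 of the 9 genes were called higher, none lower, and Foxo4 and Cpt1a were not called. The icKO libraries lay above the control libraries in 7 of the 9 genes and in 28.4% of all tested genes, with 28.9% below and 57.2% not overlapping in either direction. These counts follow from the choice of the genes and carry no weight of their own. The median log2 difference of the 9 genes was 0.81 and that of all tested genes -0.01, and 3 of the 9 (Pdk4, Irs2 and Fbxo32) had a ratio of means of at least 2, as did 6.5% of all tested genes. Annotated exons on the opposite strand overlap Foxo1, Irs2, Bcl6 and Fbxo32, in genes of at most 0.307 FPKM.

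**Figure D4:**
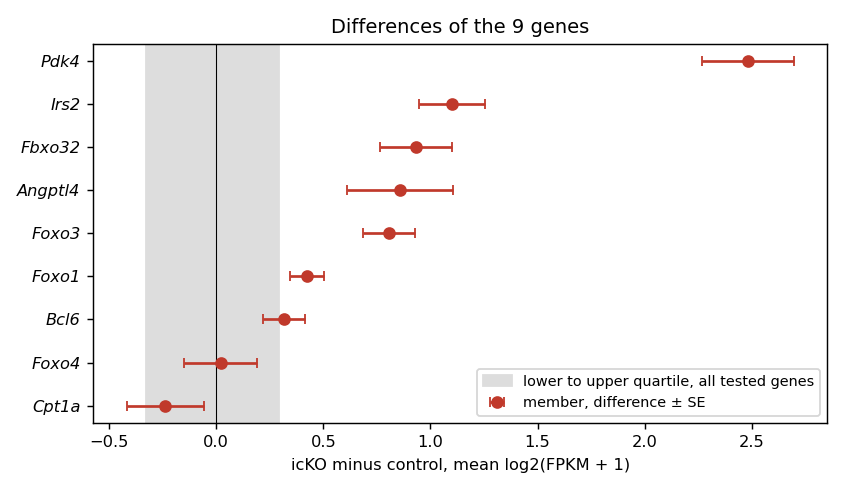
Difference between icKO and control nerves in mean log2(FPKM + 1) for each of the 9 genes, with its SE; the grey band runs from the lower to the upper quartile of all 12860 tested genes (-0.33 to 0.30). Pdk4 lies at 2.48, Foxo4 and Cpt1a lie within the band, and the other 6 genes lie between 0.32 and 1.1.

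Spread within the groups differed among the genes. The coefficient of variation in icKO nerves was 6.89% for Foxo1 and 26.5% for Cpt1a, the lowest and highest of the 9. In control nerves it was 2.93% for Foxo1 and 35.2% for Pdk4, whose control replicate 1 stood above the other control libraries. Irs2 and Fbxo32 were also highest in icKO replicate 3 among the icKO libraries and in control replicate 1 among the control libraries, as Pdk4 was. These are the libraries with the most muscle RNA. Without both, the log2 difference was 2.62 for Pdk4 and 1.14 for Irs2.

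The tested genes with the profile most like Pdk4, by Pearson correlation of log2(FPKM + 1) over the 6 libraries, were Zfp622, Slc10a6, Map1lc3b, Mt2 and Slc9a3, with r of 0.9976 to 0.9996. Those most like Foxo1 were 2410006H16Rik, Gm12940, Ccdc59, Kcna2 and Aldh5a1, with r of 0.9989 to 0.9994. Because the 6 libraries form 2 groups that stand apart, 786 genes had an r over 0.95 with Pdk4 and 886 with Foxo1, and the measure reflects mainly the difference between the groups. Map1lc3b, an autophagy gene, was at 14.9, 15.4 and 15.4 FPKM in icKO nerves, against 10.6, 9.25 and 9.44 FPKM in control nerves.

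Genes of the pathway other than the 9 were read in lists drawn from general knowledge, with earlier results of these data known. Of the 24 genes of insulin, PI3 kinase and Akt signalling, all were tested, 4 rose, 4 fell and 16 did not pass, with a median log2 difference of 0.07. Of all tested genes 20.8% were called higher and 22.1% lower, so neither count exceeds the background. The largest rise was that of Sgk1, a kinase that phosphorylates FoxO proteins and that glucocorticoids are known to raise. It was at 221, 214 and 254 FPKM in icKO nerves, against 50.3, 20.1 and 37.3 FPKM in control nerves (log2 difference 2.73, SE 0.31; limma, Benjamini-Hochberg adjusted p = 0.00120). Igf1r, the IGF-1 receptor, rose to 5.49 ± 0.735 FPKM in icKO nerves, against 3.41 ± 0.418 FPKM in control nerves, and Tsc1, a brake on mTOR, rose to 7.87 ± 1.73 FPKM, against 3.51 ± 0.106 FPKM in control nerves (SD, n = 3 each). The insulin receptor Insr was at 8.03, 2.92 and 7.37 FPKM in icKO nerves and 4.37, 1.71 and 4.18 FPKM in control nerves (limma, Benjamini-Hochberg adjusted p = 0.214), low in replicate 2 of both groups. With the replicate number as a block Insr passed, at a limma adjusted p of 0.0108, but the labels give no pairing of same-numbered libraries. The kinase gene Akt2 fell to 12.6 ± 0.828 FPKM in icKO nerves, against 16.3 ± 0.949 FPKM in control nerves, but not without control replicate 2 or 3 (limma adjusted p up to 0.0653). Akt1 was at 39.4 ± 2.62 FPKM in icKO nerves and 38.5 ± 2.98 FPKM in control nerves (adjusted p = 0.799). The fall of the Akt phosphatase Phlpp2 was lost without any 1 of the control libraries and with the replicate block, among other settings (limma adjusted p up to 0.0929), and with that block 2 genes of the list fell instead of 4, as they did without the muscle-rich libraries. Without control replicate 2, or without control replicate 3, 1 gene fell.

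Genes for proteins that bind, modify or export FoxO factors were listed together with the forkhead genes Foxo6, given above, Foxk1 and Foxk2. Of 22 tested genes of this list, 6 rose (Foxo6 and Foxk1 among them), 9 fell (Foxk2 among them) and 7 did not pass, with a median log2 difference of -0.14. Among all tested genes 20.8% rose and 22.1% fell. Kat2b and Crebbp, acetyltransferases, rose to 39.8 ± 4.83 and 5.45 ± 0.901 FPKM in icKO nerves, against 19.1 ± 0.534 and 2.36 ± 0.173 FPKM in control nerves. Xpo1, the nuclear export receptor, fell to 9.35 ± 0.470 FPKM in icKO nerves, against 15.3 ± 0.763 FPKM in control nerves (SD, n = 3 each, limma, Benjamini-Hochberg adjusted p = 0.00148). Among the 6 genes of 14-3-3 proteins in the list, Ywhab, Ywhae, Ywhag, Ywhah and Ywhaq fell, and Ywhaz did not pass (adjusted p = 0.816). Ywhaq was at 30.3, 24.2 and 32.8 FPKM in icKO nerves, against 86.8, 89.4 and 44.8 FPKM in control nerves, and Ywhab at 43.5, 37.2 and 49.1 FPKM, against 58.1, 68.3 and 65.5 FPKM in control nerves. Of these 5 falls only that of Ywhab passed in all alternatives. Without control replicate 2 only 4 genes of the list fell, and 5 fell without control replicate 3 or icKO replicate 1.

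Other known FoxO target genes included Sesn1, Gadd45b and Cat. Of 33 tested, 18 rose (20.8% of all tested genes did), 3 fell and 12 did not pass, with a median log2 difference of 0.52. Sesn1, a stress-induced brake on mTOR, rose to 131 ± 37.1 FPKM in icKO nerves, against 46.7 ± 8.83 FPKM in control nerves (log2 difference 1.45, SE 0.23; limma, Benjamini-Hochberg adjusted p = 0.00352). Gadd45b, a growth arrest gene, was at 15.6, 13.4 and 43.1 FPKM in icKO nerves, against 5.66, 5.72 and 3.98 FPKM in control nerves (adjusted p = 0.0122). Fbxo31, like Fbxo32 an F-box gene, rose to 13.4 ± 1.21 FPKM, against 6.03 ± 0.173 FPKM in control nerves. The cell cycle inhibitors Cdkn1a and Cdkn1b, the autophagy genes Map1lc3b, Gabarapl1, Atg12 and Ulk1, and the death genes Bnip3 and Bcl2l11 were among the 18. Of these, Cdkn1b and Gabarapl1 were each lost in 3 of 15 alternatives and Atg12 in 5. Atg14, also an autophagy gene, and Bbc3, also a death gene, did not pass (limma, Benjamini-Hochberg adjusted p = 0.0847 and 0.407). Ccnd2, a cyclin that FoxO proteins are known to repress, fell to 1.52 ± 0.455 FPKM in icKO nerves, against 5.95 ± 1.64 FPKM in control nerves. The antioxidant genes Cat and Prdx3, which FoxO proteins are known to raise, fell, Cat to 60.7 ± 5.45 FPKM in icKO nerves, against 124.6 ± 8.87 FPKM in control nerves (adjusted p = 0.000843). Sod2, the best known antioxidant target, was at 5.88, 6.29 and 6.48 FPKM in icKO nerves and 5.97, 6.16 and 6.86 FPKM in control nerves (adjusted p = 0.845). Tnfsf10, Igfbp1 and G6pc were below the filter. Tnfsf10 was lower in every icKO library than in every control library (0.464 ± 0.0550 against 1.41 ± 0.165 FPKM). Igfbp1 and G6pc were higher in every icKO library, at means of 0.186 and 0.137 FPKM, against 0.0106 and 0.00672 FPKM in control nerves. When single libraries were left out, 12 to 19 genes of the list rose, and 11 of the 18 rises passed in each alternative that tested the gene. Without icKO replicate 3, and without both muscle-rich libraries, 5 fell.

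Of 32 tested genes of PPAR signalling and fatty acid oxidation, 4 rose (20.8% of all tested genes did), 11 fell (22.1% did) and 17 did not pass, with a median log2 difference of -0.19. The 11 include Pparg, Lpl, Lmf1 and Acaca, which do not encode enzymes of oxidation. The calls of the oxidation genes Slc25a20, Acadm and Hadha were each lost in 6 or 7 alternatives. Decr1, also an oxidation gene, fell to 6.53 ± 1.64 FPKM in icKO nerves, against 12.4 ± 0.593 FPKM in control nerves. The fall of Decr1 passed in all 15 alternatives. The oxidation gene Acads went the other way, at 12.4 ± 0.607 FPKM in icKO nerves, against 9.64 ± 0.330 FPKM in control nerves (limma, Benjamini-Hochberg adjusted p = 0.0132). The rise of Acads was lost without control replicate 3 and without both muscle-rich libraries. Ppara, the receptor of the fasting liver, was at 0.666, 0.724 and 1.43 FPKM in icKO nerves and 0.748, 1.06 and 1.014 FPKM in control nerves, below the filter. Ppard was at 2.18 ± 0.255 and 2.17 ± 0.210 FPKM in icKO and control nerves (SD, n = 3 each, limma, Benjamini-Hochberg adjusted p = 0.969). Pparg, the receptor of fat cells, fell to 1.91 ± 0.400 FPKM in icKO nerves, against 4.51 ± 0.216 FPKM in control nerves (adjusted p = 0.00174), beside the fall of the adipocyte markers given above. Their shared receptor partner Rxra rose to 20.6 ± 3.65 FPKM, against 10.9 ± 0.805 FPKM in control nerves. Acot1, an acyl-CoA thioesterase gene of fasting, rose to 18.9 ± 2.61 FPKM in icKO nerves, against 5.09 ± 1.31 FPKM in control nerves, although near-identical paralogs make its level uncertain. Ucp2, a mitochondrial carrier, and Acaca, which makes the malonyl-CoA that blocks Cpt1a, fell to 14.7 ± 6.46 and 7.67 ± 0.551 FPKM in icKO nerves, against 36.6 ± 2.75 and 16.8 ± 2.23 FPKM in control nerves. Cpt2, the partner of Cpt1a, was at 7.29 ± 2.001 FPKM in icKO nerves and 8.69 ± 0.692 FPKM in control nerves (adjusted p = 0.273), and passed as a fall without icKO replicate 3 or without both muscle-rich libraries. The number that fell was 6 to 15 when single libraries were left out, lowest without icKO replicate 1 or control replicate 3.

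Pyruvate entry into mitochondria was described by 13 genes, all tested, of which 3 rose (Pdk1, Pdk2 and the phosphatase regulator Pdpr), 4 fell and 6 did not pass, with a median log2 difference of -0.19. The shares among all tested genes were 20.8% called higher and 22.1% called lower. Pdha1, the subunit on which Pdk4 acts, fell to 31.2 ± 5.81 FPKM in icKO nerves, against 49.0 ± 3.26 FPKM in control nerves (SD, n = 3 each, limma, Benjamini-Hochberg adjusted p = 0.0104). The pyruvate carrier genes Mpc1 and Mpc2 fell to 12.0 ± 1.63 and 4.06 ± 0.341 FPKM in icKO nerves, against 20.5 ± 2.05 and 6.37 ± 0.0420 FPKM in control nerves. None of the 3 rises passed in all alternatives, with 1 left without control replicate 2 and none without control replicate 3, and Pdpr was also lost without control replicate 1. In the angiopoietin-like family, 3 of 4 tested genes fell and none rose, unlike Angptl4. Angptl1 was at 1.06, 0.892 and 0.918 FPKM in icKO nerves, against 2.02, 6.36 and 5.05 FPKM in control nerves (adjusted p = 0.0127). Angptl6 fell to 0.560 ± 0.181 FPKM, against 1.88 ± 0.223 FPKM in control nerves, and overlaps A230050P20Rik on the opposite strand, which makes its level uncertain. The fall of Angptl2 was lost with the replicate block, without a filter and without icKO replicate 1 or 2 or control replicate 2 or 3 (limma adjusted p up to 0.0884).

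Of 14 tested partners and targets of Bcl6, 3 rose, 1 fell and 10 did not pass, with a median log2 difference of 0.20. The share that rose was near that of all tested genes (20.8%), and the share that fell was below it (22.1%). Socs3, a brake on cytokine signalling, was at 24.4, 16.6 and 50.4 FPKM in icKO nerves, against 8.37, 10.4 and 6.19 FPKM in control nerves (limma, Benjamini-Hochberg adjusted p = 0.0154, and 0.0540 without control replicate 3). The corepressor subunit Gps2 rose to 20.3 ± 0.0903 FPKM in icKO nerves, against 14.7 ± 0.277 FPKM in control nerves, and Bcorl1 fell to 2.22 ± 0.0667 FPKM, against 3.46 ± 0.481 FPKM in control nerves (SD, n = 3 each). The rise of Hdac5 was lost without any 1 of the control libraries (limma adjusted p up to 0.0782). With quantile scaling 5 genes of this list rose, and 1 rose without control replicate 3.

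Glucocorticoid-responsive genes, which share Pdk4, Fbxo32, Irs2 and Angptl4 as known targets with FoxO or fasting signals, were higher in the same libraries. Of 15 tested, 13 rose and 2 fell, with a median log2 difference of 1.89, while 20.8% of all tested genes rose and 22.1% fell. Fkbp5, a chaperone of the glucocorticoid receptor, was at 21.1, 24.6 and 19.7 FPKM in icKO nerves, against 3.60, 2.21 and 3.24 FPKM in control nerves (log2 difference 2.52, SE 0.15; limma, Benjamini-Hochberg adjusted p = 0.000364). Klf15, a factor that acts with the receptor on fasting genes, was at 69.4, 86.4 and 61.2 FPKM in icKO nerves, against 20.8, 10.3 and 13.0 FPKM in control nerves (adjusted p = 0.00119). Per1, also a clock gene, rose to 57.7 ± 11.6 FPKM, against 13.3 ± 8.15 FPKM in control nerves (SD, n = 3 each). The receptor gene Nr3c1 itself fell to 10.4 ± 3.01 FPKM in icKO nerves, against 18.5 ± 1.84 FPKM in control nerves (adjusted p = 0.0195), but not without control replicate 2 or 3 (limma adjusted p up to 0.0648). Sult1a1, the other gene that fell, overlaps Sgf29 on the opposite strand, which makes its level uncertain. The 13 rises passed in each alternative that tested the gene. The part of glucocorticoid signals in the levels of the 9 genes was not tested.

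**Figure D5:**
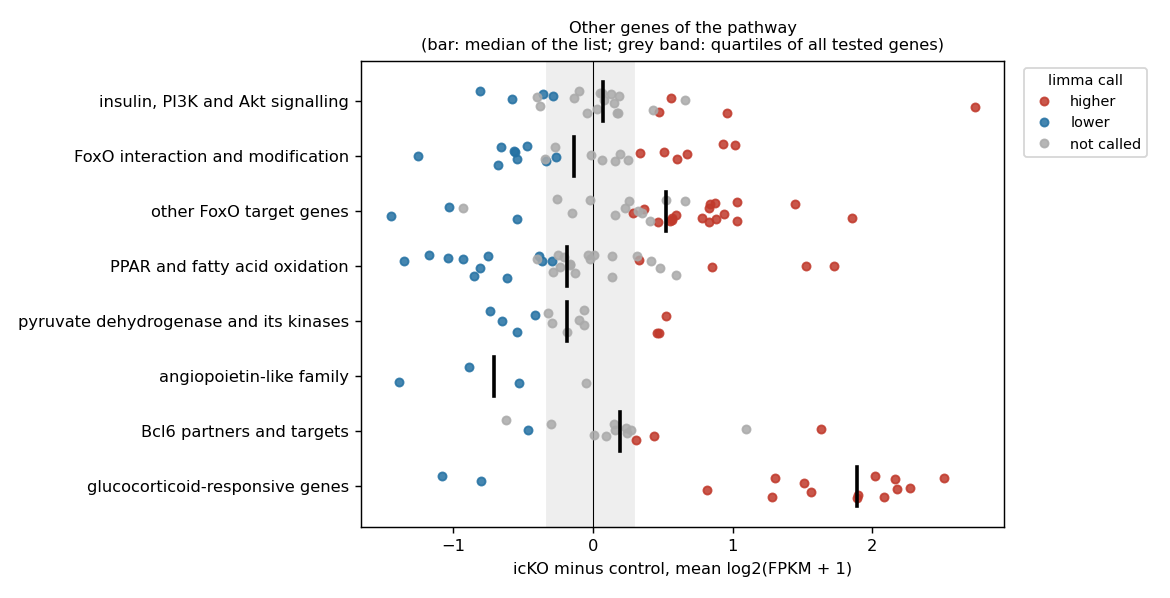
Difference between icKO and control nerves in mean log2(FPKM + 1) for each tested gene of 8 lists that hold none of the 9 genes; colours give the limma call at a Benjamini-Hochberg adjusted p under 0.05, black bars the median of a list and the grey band the quartiles of all tested genes. The medians run from -0.71 in the angiopoietin-like family to 1.89 in the glucocorticoid-responsive genes, with 0.52 in the other FoxO target genes.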

How the data were processed

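Polyadenylated RNA was profiled in 3 icKO and 3 control libraries, grouped and numbered by the labels. The authors deposited 1 table of FPKM values. Per the submitters' processing notes, the tools were StringTie 1.3.1c, STAR, FastQC 0.11.2 and DESeq2 1.16.1 with the build GRCm39, without roles. The annotation release and strand setting were not stated. The labels do not name separate animals, so a p-value covers only the spread between these 6 libraries.

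Symbols came from GENCODE M21 (GRCm38), matched for 55154 of 55335 IDs, and promoters from RefSeq (GRCm38.p6). Counts of fragments could not be rebuilt from the values, which bars count models, and depth was estimated from low FPKM steps in genes with 1 annotated transcript.

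The 12860 genes averaging 1 FPKM or more were tested two-sided on log2(FPKM + 1), which understates changes of low genes, with limma 3.58.1 (R 4.3.3) and a variance trend. Benjamini-Hochberg adjustment ran over all of them, with calls at 0.05, and the procedure was checked on simulated data. The 9 genes, lists, tests and alternatives were chosen with earlier results of these data known. Named were the 3 largest rises and falls of each list, among calls without overlap, and 18 fixed genes. Further list members were chosen after their values were seen. A gene that the rule names is not reported here.

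Alternatives were a pseudocount of 0.1, dropping the filter or raising it to 5 FPKM, 3 other scalings, a replicate block, no variance trend, and leaving out each library or both muscle-rich ones.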

Additional observations from a re-analysis of the deposited data

How the results depend on the processing

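The 9 genes were chosen by the values compared, so their calls are no evidence of stability. Of them, 5 or 6 were called higher when single libraries were left out. No difference of a called gene among the 9 changed sign, and those of Foxo4, Akt1 and Ppard, which were near 0 and not called, did in some alternatives. Scaling moved the median of all genes by less than 0.1 on the log2 scale. Insulin signalling: with a mean of at least 5 FPKM 2 rose, and with the replicate block and without the muscle-rich libraries 2 fell. With that filter 3 FoxO interaction genes rose, 7 fatty acid oxidation genes, 1 angiopoietin-like gene and 0 Bcl6 partners fell, and of all genes 1696 rose and 1612 fell, among the fewer genes tested. With quantile normalization 5 Bcl6 partners rose, and without the muscle-rich libraries 5 FoxO targets fell (the cause was not tested).

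With single libraries left out, of all genes 1857 to 2534 rose and 1871 to 2942 fell, and over all lists 37 to 52 rose and 22 to 44 fell. In insulin signalling 4 to 5 rose and 1 to 4 fell, in FoxO interaction 4 to 6 rose and 4 to 9 fell, in FoxO targets 12 to 19 rose and 3 to 5 fell. In fatty acid oxidation 3 to 5 rose and 6 to 15 fell, in pyruvate entry 0 to 3 rose and 3 to 5 fell, in Bcl6 partners 1 to 4 rose and 1 to 2 fell, and in glucocorticoid-responsive genes 13 rose and 1 to 2 fell.

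The replicate numbers share only a number. Deviations of same-numbered libraries correlated at -0.103, 0.043 and -0.055, and with the replicate block 2272 genes were called higher and 2324 lower, against 2670 and 2846 without it. The block changed the call of Bcl6 among the 9 genes. With 3 libraries a group and no counts, the precision of low genes is limited.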
